A study of Mus musculus with 24 samples.

Results

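The 39 genes described here are immediate early and activity-regulated genes, a list chosen by symbol that holds transcription factors, signalling modulators and effector proteins. All 39 were among the 24062 genes of the count table, and all 39 were among the 16313 genes that passed the filter for low expression and were tested. Their counts came from 24 bulk RNA libraries in 4 groups, made from hippocampus dissected out of C57BL/6 mice. Wild type (WT) mice gave 7 control and 6 stress libraries, and mice labelled as interleukin-1 receptor 1 (IL-1R1) knockout (KO), which the series describes as nIL-1R1, gave 6 control and 5 stress libraries. The stress was social defeat by paired fighting, and the other groups are labelled control. The labels name no promoter or Cre line, no age, and no interval between the last fight and the taking of tissue. Nor do they state 1 mouse per library, so a p-value here reflects the spread among these samples alone, part of which may be technical.

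Immediate early genes are switched on within minutes of a rise in calcium, cAMP or growth factor signalling, without the need for new protein. In hippocampal neurons, synaptic activity reaches them through kinases that act on the factors CREB, SRF and MEF2, and the encoded proteins then switch on slower genes or act at the synapse. Their transcripts are short-lived, so a level reports signalling in the recent past, and several of them also answer to other stimuli in glia and vessels. A bulk library cannot tell fewer cells with a transcript from less transcript per cell.

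Stretches before the start sites of 6 of the genes are shown. In a test described further on, Nr4a1, Egr2, Junb and Btg2 varied with Fos across libraries, while Jun did not pass. Other genes that did not pass also hold the sites marked here, as counted further on. The capitals mark the core of the cAMP response element (CRE), TGACG read on either strand and called the CRE core site, to which CREB and related factors bind, and the CArG box, which SRF binds. Each line holds the 250 bases before a RefSeq start site in GRCm38.p6, 5′ to 3′ on the gene's own strand, and none of them overlaps an exon of its gene in GENCODE M21.
Fos, chr12:85473640-85473889, plus strand: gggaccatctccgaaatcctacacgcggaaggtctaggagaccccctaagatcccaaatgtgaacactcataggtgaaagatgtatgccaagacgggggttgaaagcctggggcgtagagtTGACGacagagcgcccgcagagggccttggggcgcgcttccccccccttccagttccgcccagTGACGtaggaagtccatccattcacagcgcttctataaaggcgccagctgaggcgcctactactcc
Nr4a1, chr15:101266596-101266845, plus strand: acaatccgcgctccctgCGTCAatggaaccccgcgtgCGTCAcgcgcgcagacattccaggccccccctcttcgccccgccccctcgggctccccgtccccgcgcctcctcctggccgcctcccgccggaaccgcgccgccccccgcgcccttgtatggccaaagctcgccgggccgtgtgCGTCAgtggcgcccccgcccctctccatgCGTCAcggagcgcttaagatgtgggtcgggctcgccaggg
Egr2, chr10:67537619-67537868, plus strand: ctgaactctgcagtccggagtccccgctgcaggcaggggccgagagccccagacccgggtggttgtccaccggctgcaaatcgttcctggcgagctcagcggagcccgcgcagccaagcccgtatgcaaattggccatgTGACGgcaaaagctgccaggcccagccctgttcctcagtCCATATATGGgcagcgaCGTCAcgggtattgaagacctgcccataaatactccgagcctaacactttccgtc
Junb, chr8:84978749-84978998, minus strand: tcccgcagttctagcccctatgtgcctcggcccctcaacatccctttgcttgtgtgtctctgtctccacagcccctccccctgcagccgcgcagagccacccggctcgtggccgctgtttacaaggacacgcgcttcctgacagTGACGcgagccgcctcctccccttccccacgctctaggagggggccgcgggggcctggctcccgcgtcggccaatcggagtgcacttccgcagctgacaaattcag
Btg2, chr1:134079156-134079405, minus strand: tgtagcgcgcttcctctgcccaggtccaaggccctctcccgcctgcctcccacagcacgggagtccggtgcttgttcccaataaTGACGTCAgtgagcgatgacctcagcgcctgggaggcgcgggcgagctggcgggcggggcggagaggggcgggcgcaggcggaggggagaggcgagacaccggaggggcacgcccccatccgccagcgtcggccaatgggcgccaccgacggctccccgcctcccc
Jun, chr4:95052223-95052472, minus strand: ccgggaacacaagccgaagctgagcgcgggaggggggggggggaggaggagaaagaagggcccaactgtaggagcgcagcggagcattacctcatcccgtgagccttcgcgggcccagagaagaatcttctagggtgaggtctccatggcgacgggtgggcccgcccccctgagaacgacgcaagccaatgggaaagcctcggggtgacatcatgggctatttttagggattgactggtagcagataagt

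Counted back from the start site, the core sites of Fos began at positions -129 and -66, and those of Nr4a1 at -233, -213, -69 and -40. In Egr2 a CArG box at -72 to -63 lay between core sites at -111 and -55. RefSeq start-site windows were held for 30 of the 39 genes, and were not used for Dusp4, Trib1, Ier2, Arc, Nptx2, Klf10, Sik1, Egr1 and Egr3. The CRE core site was found in at least 1 window of 19 of the 30 genes (63.3%), against 19.8% of 26994 genes with windows of the same length. The full CRE, TGACGTCA, whose letters contain the core site on both strands, was found in 3 of 30 (10%; Btg2, Dusp1 and Maff) against 1.77%. The CArG box was found in 2 of 30 (6.67%; Dusp5 and Egr2) against 1.63%, and the AP-1 site TGACTCA, read on both strands, in 1 of 30 (3.33%; Csrnp1) against 5.16%. A match of letters is a description of these windows, and some genes have several windows. Sites further than 250 bases before a start site were not searched, so a window without a match does not show that a gene lacks the site.

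The libraries held 25711872 to 35148198 counts. The 45S ribosomal RNA precursor Rn45s parted them into 11 libraries with 24240 to 50450 CPM (a gene's count scaled to a fixed library total), called set 1, and 13 with 4107 to 8786 CPM, called set 2. The sets are not named in the labels but follow the replicate numbers: set 1 held replicates 1 to 3 of the WT controls, 1 and 2 of either stress group, and 1 to 4 of the KO controls. Values within a set are therefore given beside the main results. Il1r1, which the knockout targets, had 3.35 ± 1.31 CPM in WT controls (SD, n = 7) and 3.44 ± 1.21 in KO controls (n = 6), and 5.56 ± 1.45 in WT stress (n = 6) and 5.54 ± 1.77 in KO stress (n = 5), so whole-tissue Il1r1 was not lower in the libraries labelled KO, and the counts do not show which exons were deleted or in which cells. Excitatory neurons of the hippocampus were present in every library by their markers (sum over 7 genes of 239.5 to 939.4 CPM). Transcripts of thalamus and habenula (3 genes) summed to 41.37 to 416.2 CPM, and were highest in WT stress 5 (416.2), KO stress 3 (412.2) and KO stress 5 (309.1).

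Levels were compared between genes only per kilobase of exon (mean CPM over 24 libraries divided by the length of all GENCODE exons). Jund, an AP-1 factor with high basal expression, was the most abundant at 235.8 CPM per kb, followed by Arc, a synaptic protein that forms capsid-like particles, at 87.7. Egr1 (53.7), Junb (49.2) and Nr4a1 (34.9) came next. Fos ranked 13 of 39 at 14.7 CPM per kb and Npas4, a neuron-specific factor induced by calcium, ranked 21 at 7.37. The lowest were Nr4a3 (0.661), Atf3 (0.572) and Inhba (0.124), the gene of an activin subunit. Neighbours in this order, such as Jun (30.5) and Egr4 (29.6), were closer than the SD between libraries of a group (Jun pooled SD 0.339 and Egr4 0.627 on the log2 CPM scale).

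Levels differed widely between libraries of the same group. Fos ran from 6.54 to 82.1 CPM in WT controls (median 20.6), from 17.7 to 101.5 in WT stress (median 26.9) and from 14.0 to 71.0 in KO controls (median 24.4), and had 16.6, 18.2, 33.7, 30.9 and 35.96 CPM in KO stress. The highest WT control library thus exceeded 5 of the 6 WT stress libraries. Arc ran from 136.6 to 535.6 CPM in WT controls (median 198.9), from 134 to 752.1 in WT stress (209.8) and from 131.5 to 535.2 in KO controls (227.4), and had 114, 125.2, 163.5, 291.5 and 157.6 CPM in KO stress. No KO stress library reached the highest levels of the other groups, but all 4 ranges overlapped.

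Npas4 ran from 13.1 to 87.7 CPM in WT controls (median 28.4), 13.7 to 68.2 in WT stress (25.1) and 11.8 to 73.3 in KO controls (20.3), with 10.4, 11.9, 20.5, 32.0 and 18.5 CPM in KO stress. Egr1, a zinc-finger factor used as a marker of recent neuronal activity, ran from 121.8 to 409.2 CPM in WT controls (189.8), 119.6 to 532.3 in WT stress (233.8) and 200.1 to 359.3 in KO controls (252.8), with 168.1, 183.2, 163.1, 272.3 and 172.3 in KO stress. Of these 5 KO stress values 4 lay below every KO control library.

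Junb, an AP-1 partner of Fos, ran from 48.8 to 221.9 CPM in WT controls (83.8), 71.8 to 319 in WT stress (105.5) and 42.4 to 223.4 in KO controls (77.6), with 57.9, 62.6, 80.4, 133 and 75.7 in KO stress. Nr4a1, an orphan nuclear receptor, ran from 62.5 to 224.5 CPM in WT controls (82.1), 74.4 to 361 in WT stress (116) and 59.9 to 230.3 in KO controls (87.2), with 66.5, 63.3, 79.9, 138.2 and 83.9 in KO stress. Both genes peaked in WT stress 3, as Fos, Arc and Egr1 did, and the groups overlapped for both.

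Dusp1, a phosphatase that switches off MAP kinases, ran from 18.6 to 84.2 CPM in WT controls (32.0), 26.8 to 109.7 in WT stress (34.3) and 28.2 to 87.5 in KO controls (32.5), with 28.1, 29.3, 37.2, 38.6 and 38.99 in KO stress. Its group medians lay close together while single libraries in the first 3 groups stood far above them. Sik1, a kinase that restrains CREB co-activators, ran from 7.51 to 20.3 CPM in WT controls (17.0), 14.7 to 41.3 in WT stress (20.2) and 16.9 to 29.8 in KO controls (18.1), with 16.6, 17.2, 25.8, 18.5 and 31.9 in KO stress.

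**Figure D1:**
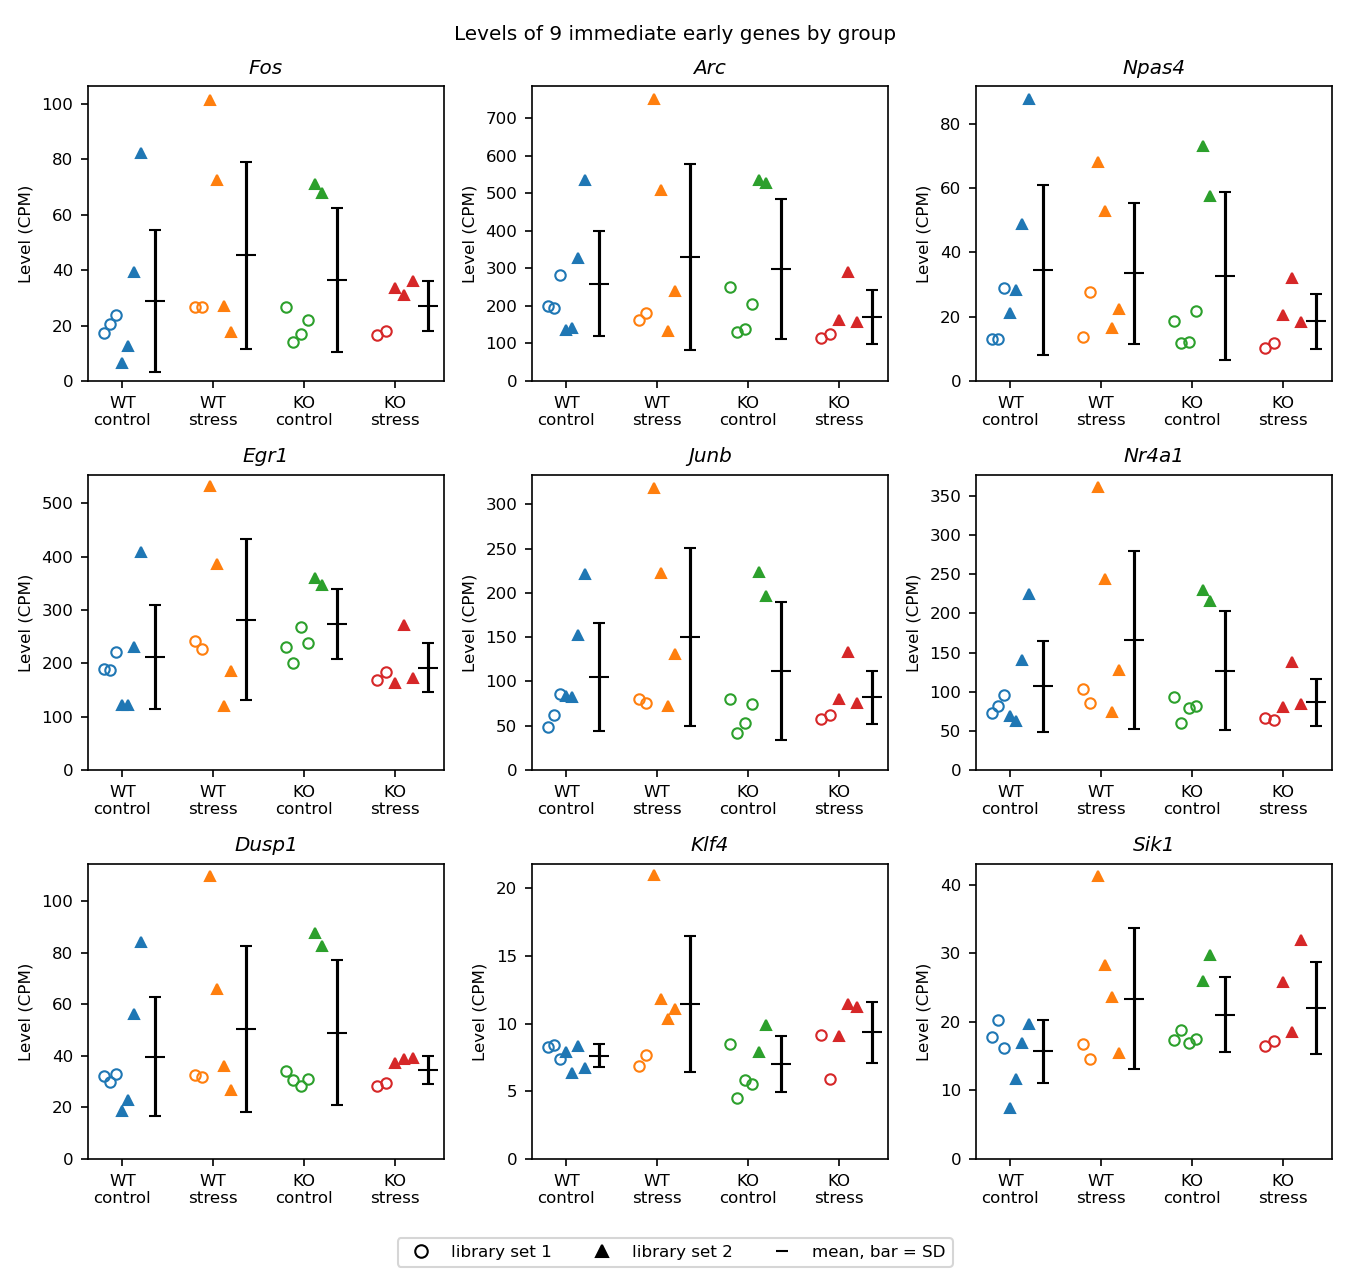
Levels of 9 immediate early genes in CPM (vertical axes, linear from 0) for each of 24 libraries by group. Open circles are set 1 and filled triangles set 2 libraries, and the horizontal mark with bars is the group mean ± SD (n = 7, 6, 6 and 5). The libraries far above the rest in WT control, WT stress and KO control are all set 2, as is the highest Fos value of 101.5 CPM.

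The same few libraries, from 3 of the 4 groups and none of them KO stress, were high for many of the genes. For 14 of the 39 genes the 5 highest of the 24 libraries were the same 5: WT control 7, WT stress 3 and 4, and KO control 5 and 6. These 14 were Arc, Dusp1, Dusp6, Egr1, Egr2, Egr4, Fos, Gadd45b, Gadd45g, Ier2, Junb, Npas4, Nr4a1 and Trib1. A further 6 genes had 4 of their 5 highest values there (Btg2, Csrnp1, Dusp5, Fosb, Nr4a2 and Sik1). At the other end, Homer1, Inhba, Jund, Nptx2, Pim1 and Rgs2 had none of their 5 highest values in those libraries. WT stress 3 alone held the highest value of 23 of the 39 genes, and its median deviation from the genes' means over all libraries was 0.927 on the log2 CPM scale. The lowest median deviations were -0.405 in KO stress 2, -0.349 in WT control 5 and -0.343 in KO control 2. The 5 libraries were named after their values were seen, and no comparison was built on them. How many of all tested genes had these same 5 highest libraries was not counted. All 5 belonged to set 2, their summed thalamic markers were 41.37 to 94.36 CPM, and their summed hippocampal markers 577.4 to 739.1 CPM. Other set 2 libraries that were not among the 5 had as few thalamic and more hippocampal transcripts, such as WT control 4 (44.95 and 895.2 CPM), WT control 5 (41.45 and 790.2) and WT stress 6 (44.25 and 939.4). Hippocampal markers parted the sets, with at most 383.9 CPM in set 1 and at least 395.7 in set 2. The part of the library set and of the tissue taken in the levels of these genes was not tested.

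**Figure D2:**
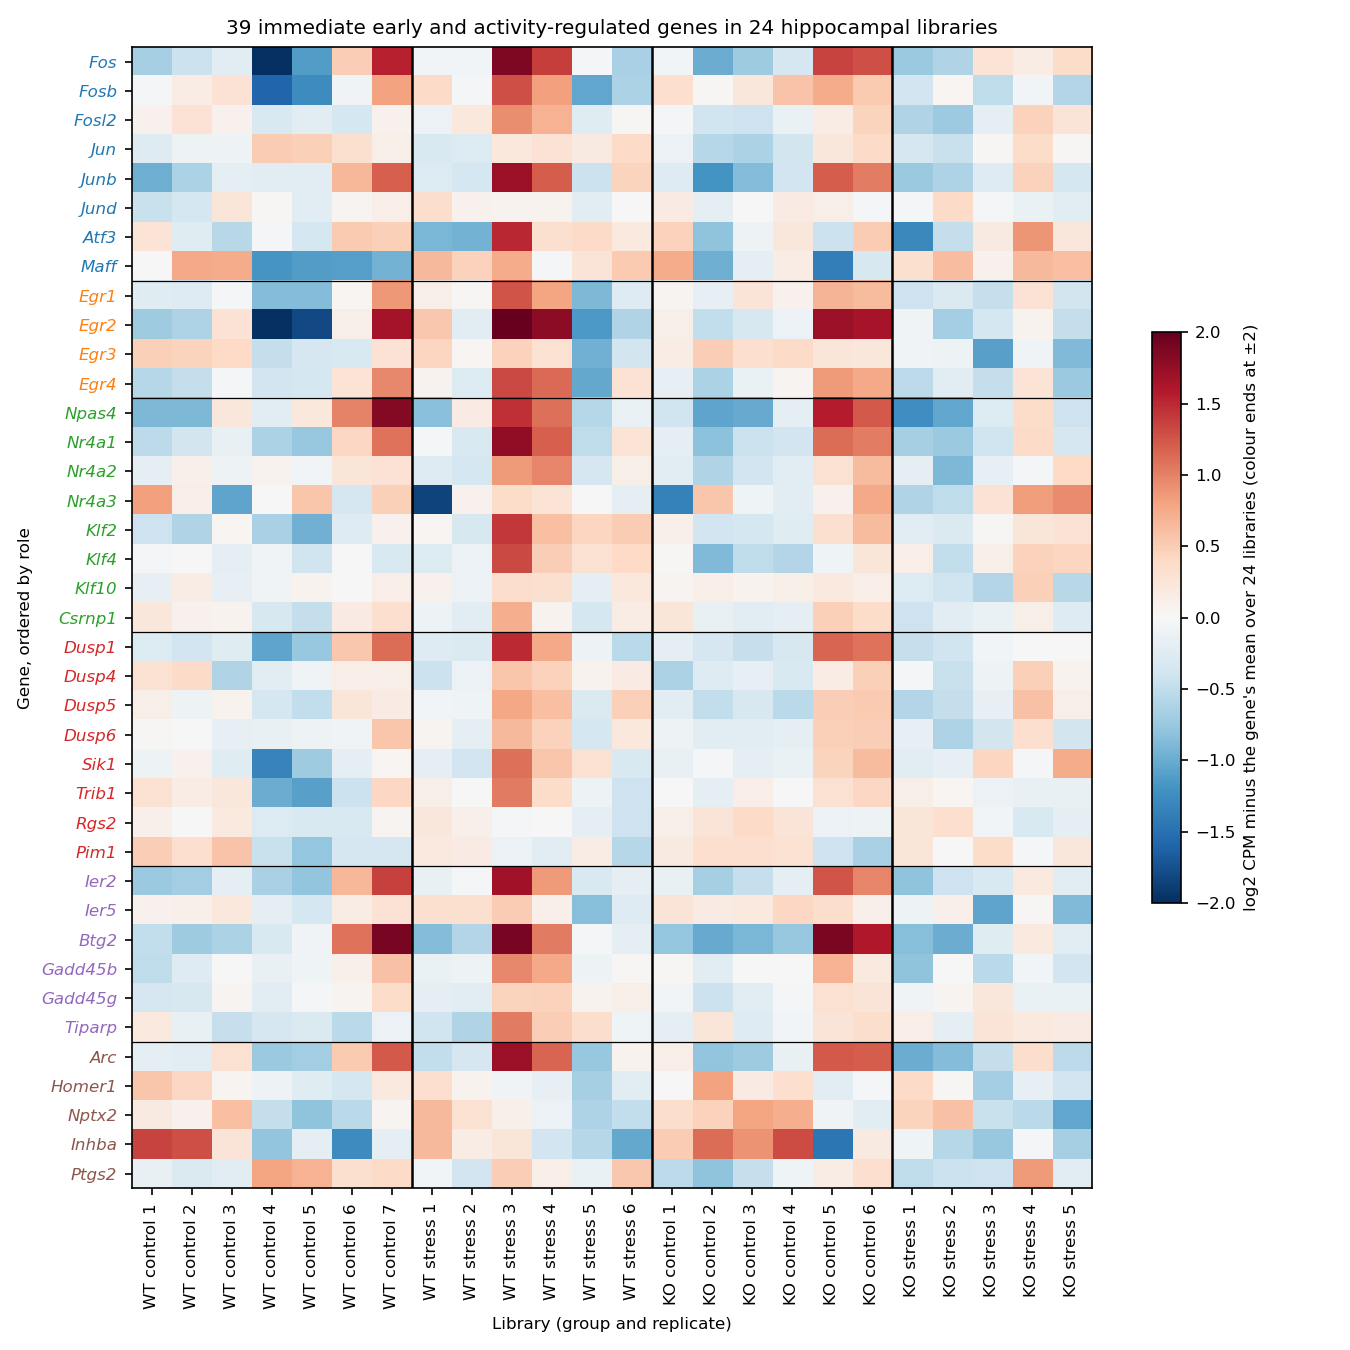
The 39 genes (rows, ordered and coloured by role) in 24 libraries (columns, vertical lines between groups). Colour gives log2 CPM minus the gene's mean over all libraries, with the scale ending at ±2. Red columns appear in 3 of the 4 groups, at WT control 7, WT stress 3 and 4, and KO control 5 and 6.

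The spread of the genes within groups was measured as the SD of log2 CPM around the group means, pooled over the 4 groups. The median of the 39 genes was 0.446, against 0.227 over all 16313 tested genes. Of the 39, 10 lay above the 90th percentile of all genes and only Jund (0.211) lay below the median of all genes. Egr2, a zinc-finger factor also needed for myelination, was the most variable at 1.19, and its level ran 44.3-fold from 0.862 CPM (24 reads) in WT control 4 to 38.2 CPM (1188 reads) in WT stress 3. Btg2, an antiproliferative gene, followed at 1.04, Fos at 0.975 and Npas4 at 0.949. Among genes of like mean level these 4 stood at the 99.2 to 99.7 percentiles, while Inhba, a low gene also among the 10, stood at 77.2. Rgs2, a regulator of G protein signalling (0.228), and Klf10 (0.237) were among the steadiest. Group by group, the median SD of the 39 was 0.562 for stressed and 0.446 for control WT mice, and 0.382 for stressed and 0.42 for control KO mice, against 0.203 to 0.232 for all genes. With the means of both library sets removed as well, the median of the 39 was 0.357 against 0.202 for all genes. Then 5 of the 39 lay above the 90th percentile and 5 below the median of all genes. With a prior count of 0.5 and only the group means removed, these counts were 6 and 2.

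**Figure D3:**
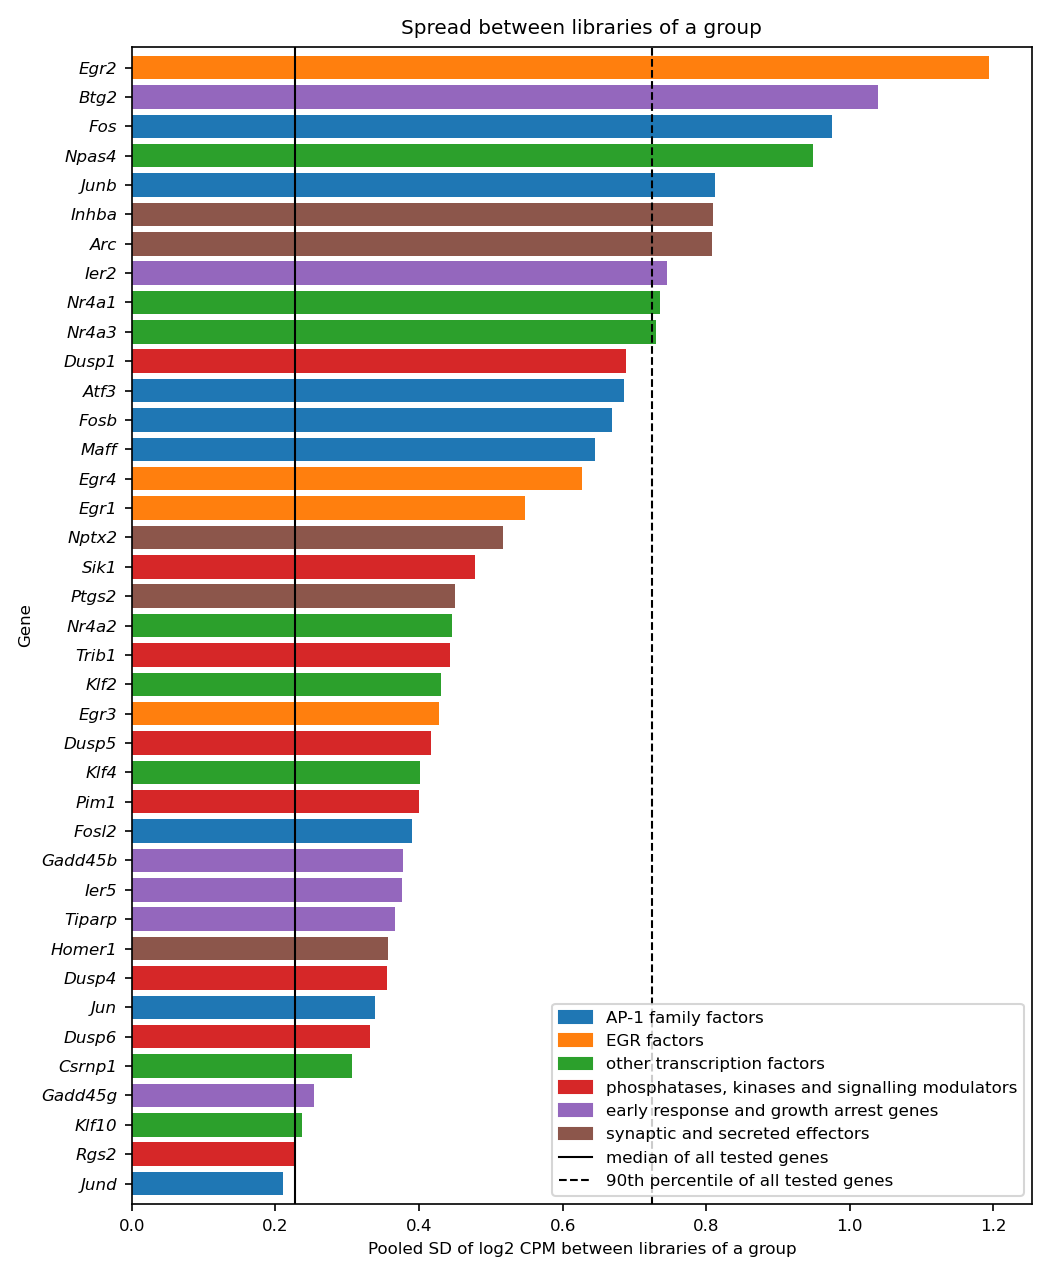
Pooled SD of log2 CPM between libraries of a group (horizontal axis) for each of the 39 genes, coloured by role. The solid line is the median of all tested genes (0.227) and the dashed line their 90th percentile (0.724). Egr2 has the longest bar and Jund the only one short of the solid line.

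How the genes varied with Fos was tested in a fit that adds the log2 CPM of Fos to the 4 group means, so that only differences between libraries of the same group count. The slope is the log2 change of a gene for each doubling of Fos. Of the other 38 genes, 18 passed the threshold, all 18 rising with Fos. Over all 16312 genes 27 passed (0.166%), all of them rising with Fos (0.166% in that direction). The median slope of the 38 was 0.26 against -0.0015 over all genes. Dusp1 had the smallest p of the whole table (slope 0.69 ± 0.037 SE, adjusted p = 2.93e-11, edgeR quasi-likelihood test, Benjamini-Hochberg), followed by Ier2 (0.70 ± 0.060, adjusted p = 2.08e-07), Egr2, Arc and Nr4a1. Egr2 had the steepest slope at 1.11 ± 0.10 (adjusted p = 8.89e-07). It was followed by Btg2 at 0.89 ± 0.11, Npas4 at 0.78 ± 0.10 and Arc at 0.74 ± 0.075.

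By role, 2 of 7 AP-1 genes passed (Junb, 0.65, and Fosb, 0.49) and 3 of 4 EGR factors (Egr2, Egr4 and Egr1). Of the other transcription factors 4 of 8 passed (Npas4, Nr4a1, Klf2 and Csrnp1), and of the signalling modulators 4 of 8 (Dusp1, Dusp5, Dusp6 and Sik1). Of the early response and growth arrest genes 4 of 6 passed (Ier2, Btg2, Gadd45b and Gadd45g), and of the synaptic and secreted effectors 1 of 5, Arc. Egr3 had a slope of 0.077 ± 0.092 (adjusted p = 0.928) although its family members Egr1, Egr2 and Egr4 passed. Jun had 0.11 ± 0.069 and Jund 0.026 ± 0.046. Homer1 (-0.11 ± 0.076), a scaffold of glutamate receptors, Nptx2 (-0.11 ± 0.12), a secreted pentraxin that clusters AMPA receptors, and Inhba (-0.24 ± 0.21) had slopes below 0 that did not pass. These gene-level counts cannot separate the short, activity-induced Homer1a form from the long forms.

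The genes that passed outside the 39 were Cyr61 (1.09 ± 0.12), a secreted matrix protein of the rapid response, Per1 (0.21 ± 0.040), a clock gene that CREB activates, and Ciart, Ovca2, Myoc, Apold1, Slc16a3, Gas1 and Tshz2. Cyr61 and Per1 made 2 of 21 in a list of further rapid response genes. None of 25 upstream kinases and factors and none of 12 slower activity-regulated genes passed, with 1 and 2 of them at an unadjusted p under 0.05. At that level there were 11 of the 21 further rapid response genes, 25 of the 38 and 1164 of all 16312 genes. The markers of thalamus and habenula had a median slope of -0.58, those of choroid plexus -0.60 and those of hippocampal neurons 0.15, none past the threshold, and their part in the slopes was not tested.

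The count of genes moving with Fos changed with the setting. With limma voom 144 genes and 21 of the 38 passed, and with a term for the library set 74 and 14 did. Within set 2 alone 8 of 38 passed (31 genes, 0.187%). Set 1 alone, with 11 libraries, called 2267 genes (13.7%), 9 of the 38 among them and 7 of these rising with Fos, while the slope of Dusp1 there was 0.18. The count of the 38 that passed was 12 without KO control 2 and 12 without KO control 5. Without WT stress 3 the count was 10, which were the 10 genes that passed in every fit leaving out 1 library: Egr2, Btg2, Npas4, Arc, Ier2, Dusp1, Nr4a1, Junb, Egr1 and Sik1. Of the 18 genes and Fos, 15 had start-site windows and 12 of these held a CRE core site, against 7 of the 15 others.

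**Figure D4:**
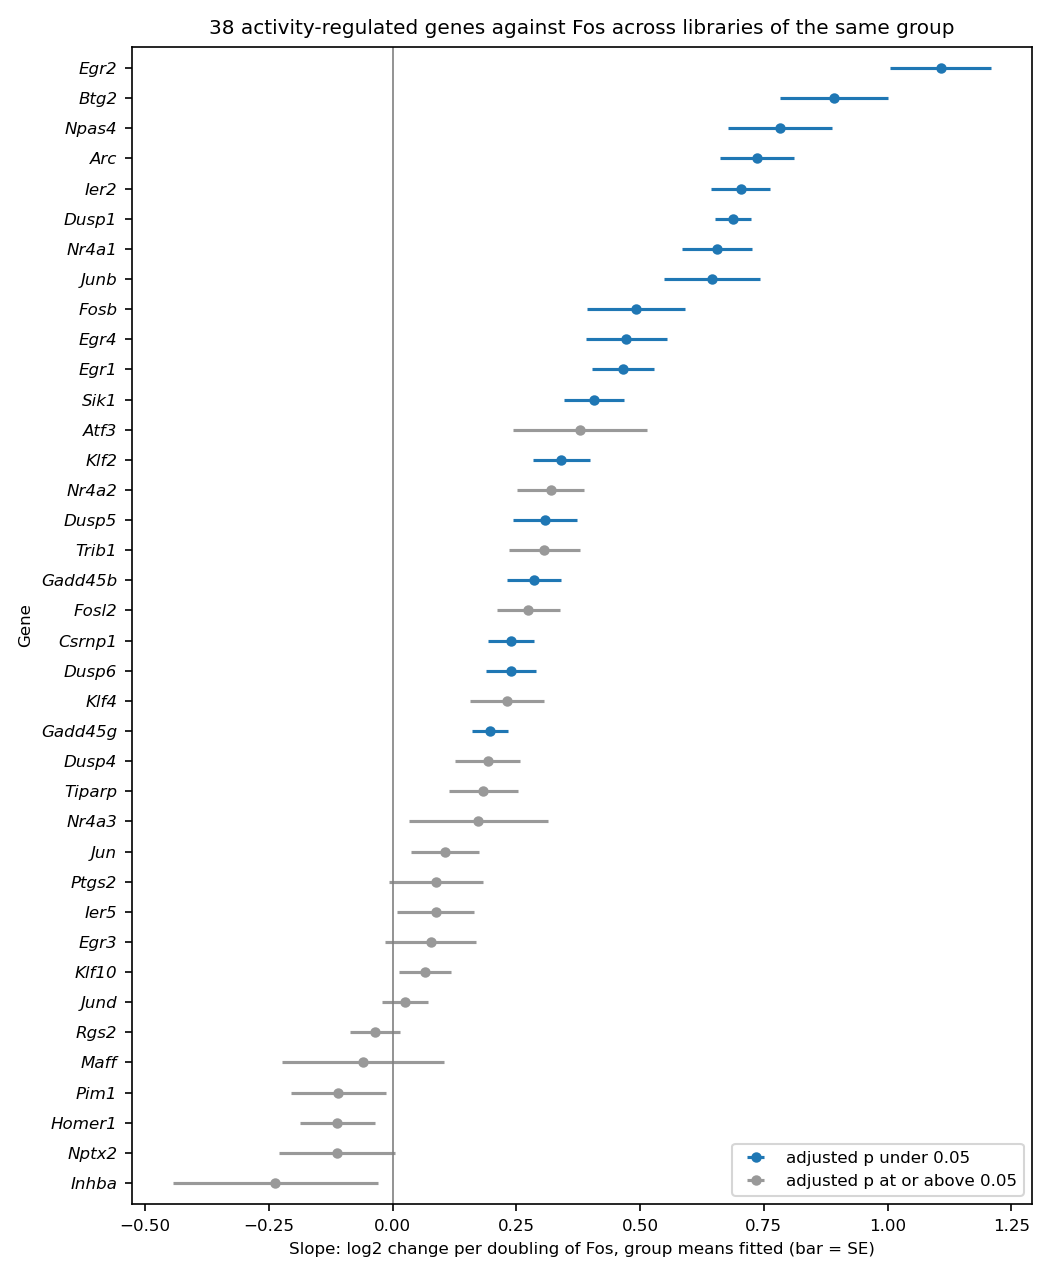
Slope of each of 38 genes on Fos across libraries of the same group (horizontal axis, log2 change per doubling of Fos, bars SE), in order of slope. Blue marks the 18 genes with an adjusted p under 0.05. Egr2 lies furthest right at 1.11, and Inhba furthest left at -0.24.

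In WT mice, stress against control asked which genes differed after social defeat. None of the 39 genes passed the threshold (edgeR), while 22 of all 16313 genes (0.135%) did. At an unadjusted p under 0.05 there were 4 of 39, all higher, and 720 of 16313. DESeq2 called 1 of the 39 and 59 of all genes (0.362%), and limma voom called 0 of the 39 and 23 of all genes (0.141%). Of the 39 log2 fold changes 31 were above 0, with a median of 0.29 against -0.0013 over all genes. This median moved both ways with single libraries. Without WT stress 3 it was 0.074, with 24 above 0 and 1 of 39 at an unadjusted p under 0.05. Without WT control 7 it was 0.38, with 32 above 0 and 11 of 39 at that level. Within set 1 the median was -0.0051 and within set 2 0.34. By role the medians were 0.37 for AP-1 factors, 0.43 for EGR factors, 0.17 for other transcription factors, 0.23 for signalling modulators, 0.25 for early response genes and -0.14 for effectors. For none of the 39 did the stress and control libraries part without overlap, as 46 of all genes (0.282%) did.

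Klf2, a flow-responsive factor of endothelium that also keeps lymphocytes quiescent, came nearest in WT mice. It ran from 11.2 to 23.3 CPM in WT controls (median 16.4) and from 17.5 to 58.3 in WT stress (30.3), where 4 of 6 libraries lay above every control. In KO mice it ran from 16.7 to 34.0 CPM in controls (20.9) and had 18.7, 17.9, 22.1, 25.9 and 26.6 CPM under stress. The KO log2 fold change was -0.036 ± 0.25 (SE, adjusted p = 0.995). Its WT log2 fold change was 0.90 ± 0.23 (SE, adjusted p = 0.179). The DESeq2 Wald test put Klf2 past the threshold (0.90, adjusted p = 0.0206, 59 genes called). Leaving out single libraries gave 0.64 (without WT stress 3) to 1.02, and adjusted p-values from 0.0583 to 0.606. Within set 1 the value was 0.18 and within set 2 1.18.

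Klf4, a related factor of endothelium and glia, ran from 6.36 to 8.42 CPM in WT controls (7.94) and from 6.90 to 21.0 in WT stress (10.7), with 4 of 6 stress libraries above every control. It ran from 4.48 to 9.89 CPM in KO controls (6.86) and had 9.14, 5.91, 9.06, 11.5 and 11.2 CPM in KO stress. Its log2 fold change was 0.59 ± 0.21 in WT (adjusted p = 0.796), against 0.42 ± 0.23 in mice labelled KO (adjusted p = 0.988). Without WT stress 3 the WT value was 0.32, and within set 1 it was -0.14. Tiparp, which adds ADP-ribose to the aryl hydrocarbon receptor, followed at 0.47 ± 0.19 (adjusted p = 0.997) and Sik1 at 0.57 ± 0.25 (adjusted p = 0.9998).

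Endothelial markers were read beside Klf2 and Klf4. In KO stress Klf2 had a log2 fold change of -0.036. All 5 markers (Cldn5, Pecam1, Cdh5, Flt1 and Tek) were above 0 in WT stress (median 0.21) and in KO stress (0.29), none past the threshold. In WT mice their sum was 133.4 to 162 CPM without stress and 145.8 to 187 with it. In KO mice it was 130.5 to 157.4 CPM without and 127.8 to 206.7 with stress, and none was at 0 in any library. Markers of neutrophils and monocytes (S100a8, S100a9 and Retnlg) also rose in WT stress, 3 of 3 past the threshold, from a sum of 0.144 to 0.81 CPM to one of 1.60 to 20.5. In KO mice they summed to 0.206 to 1.90 CPM in controls and 0.554 to 10.5 under stress. All 3 were above 0 in KO stress (median log2 fold change 2.46) at an unadjusted p under 0.05 (edgeR), none past the threshold. Retnlg had no read in 10 of the 24 libraries. Red blood cell markers rose too, 2 of 3 past the threshold in WT stress (median 2.50) and 1 of 3 in KO stress (median 1.90, 3 of 3 above 0). Their part in the levels of Klf2 and Klf4 was not tested.

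Among further rapid response genes 1 of 21 passed in WT stress: Ier3, an early response gene that limits cell death, rose with a log2 fold change of 0.98 ± 0.16 (adjusted p = 0.00524). Mcl1, its next in order of p, had 0.24 ± 0.073 (adjusted p = 0.413). None of 25 upstream kinases and factors passed (Elk3 0.31 ± 0.11 and Crtc2 0.14 ± 0.077 led by p), nor did any of 12 slower activity-regulated genes (Acan 0.26 ± 0.18 and Nptx1 -0.24 ± 0.17).

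**Figure D5:**
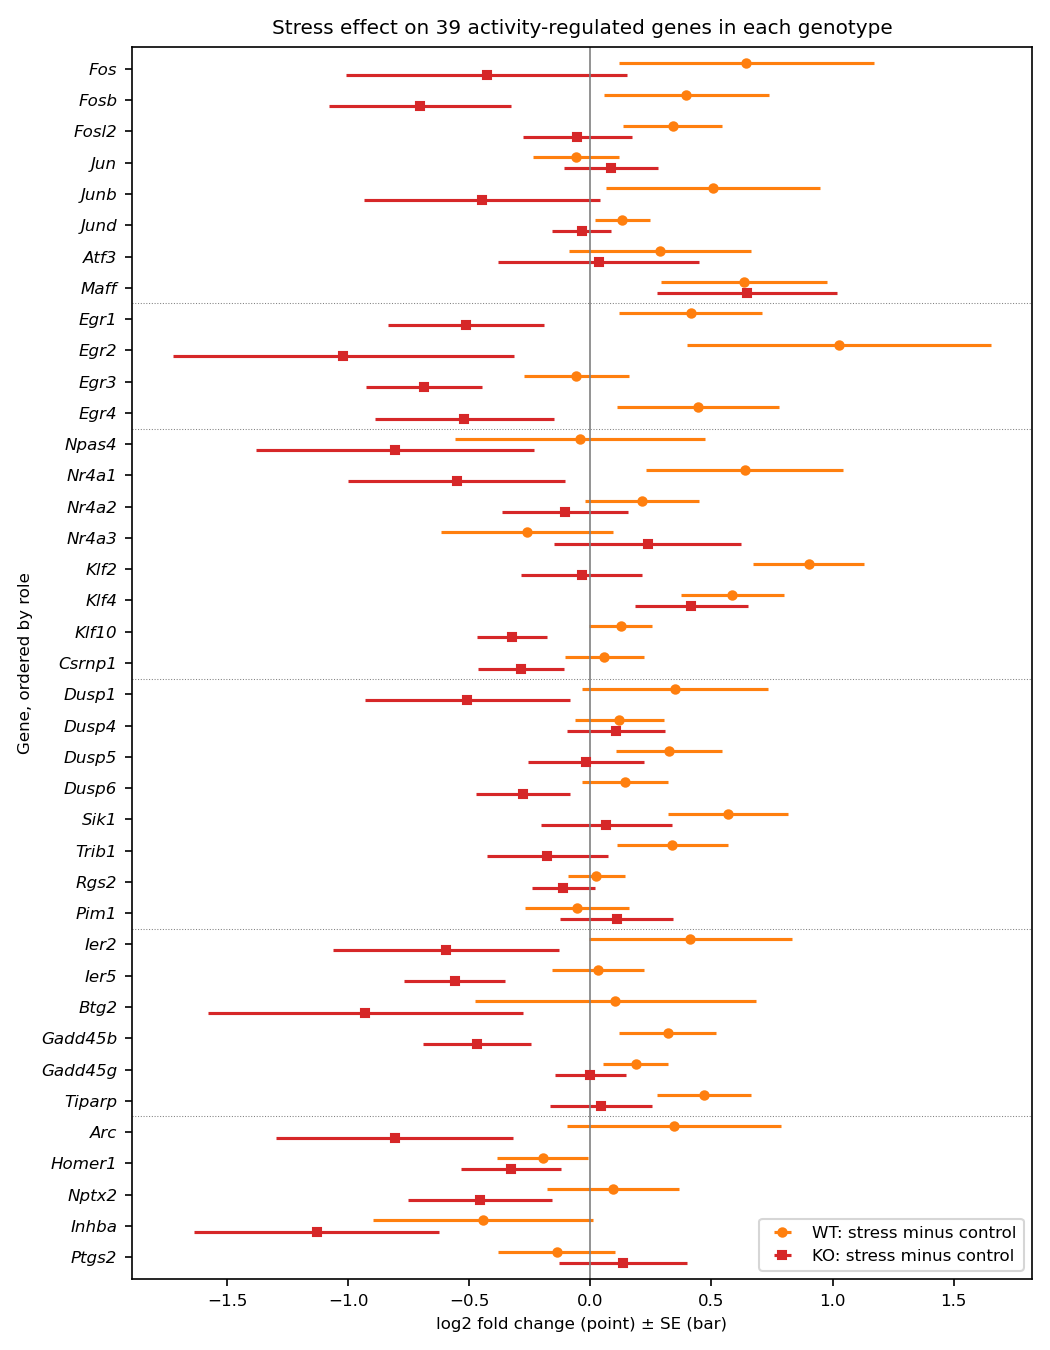
Log2 fold change of stress against control for each of 39 genes in WT (orange circles) and KO mice (red squares), with bars of 1 SE, in order of role. WT values lie mostly right of 0 (31 of 39) and KO values mostly left (28 of 39), and no gene passed the threshold in either genotype.

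In mice labelled KO, stress against control addressed the same question. Again none of the 39 passed, beside 1 of all genes (0.00613%). At an unadjusted p under 0.05 there were 5 of 39, all lower, and 648 of 16313. DESeq2 and limma voom called 0 of the 39, beside 7 (0.0429%) and 1 (0.00613%) of all genes. Of the 39 log2 fold changes 28 were below 0, with a median of -0.29 against 0.0052 over all genes. The median was -0.17 within set 1 and -0.38 within set 2. In set 2 the KO controls were KO control 5 and 6 alone (n = 2), both among the 5 high libraries, beside 3 KO stress libraries. Without KO control 5 the median was -0.16, and without KO stress 4 it was -0.36. EGR factors had a median of -0.60, with 4 of 4 below 0, early response genes -0.51 and effectors -0.46, while AP-1 factors (-0.046) and signalling modulators (-0.065) lay close to 0.

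Egr3, a zinc-finger factor downstream of neurotrophin and activity signals, was the 1 gene of the 39 whose groups did not overlap in KO mice, where 49 of all genes (0.3%) did not. KO controls ran from 123.9 to 156.9 CPM (median 136.5), and KO stress libraries held 106.5, 103.9, 52.9, 106.2 and 60.8 CPM. Its log2 fold change was -0.69 ± 0.24 (adjusted p = 0.988). In WT mice it ran from 80.7 to 156.2 CPM in controls (136.1) and from 57.5 to 154.8 under stress (126.1), with a log2 fold change of -0.059. Ier5, a co-activator of heat shock factor, followed at -0.56 ± 0.21. It ran from 80.2 to 100.1 CPM in KO controls and held 69.5, 80.3, 35.9, 75.8 and 40.4 CPM in KO stress. Both genes were lowest in KO stress 3, KO stress 5 and WT stress 5, the libraries with the most thalamic transcripts, and without these 3 libraries the KO values were -0.39 for Egr3 and -0.24 for Ier5. Klf10, a TGF-beta-inducible factor, had -0.32 ± 0.14, with 19.03 to 20.9 CPM in KO controls and 15.2, 14.0, 12.2, 25.7 and 12.5 in KO stress, and its value without those 3 libraries was -0.12. None of the 39 then had an unadjusted p under 0.05 in KO mice. That fit lacked KO stress 3 and KO stress 5, the lowest KO stress libraries for Egr3, Ier5 and Klf10. It kept KO stress 1, 2 and 4, where Egr3 held 106.5, 103.9 and 106.2 CPM, below every KO control. The part of the tissue taken in these values was not tested.

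Of the genes given throughout, Fos, Nr4a1, Egr1, Junb, Arc and Dusp1 had point values above 0 in WT and below 0 in KO mice, and Klf4, Npas4 and Sik1 had the same sign in both, none past the threshold. Fos had 0.64 ± 0.53 in WT and -0.43 ± 0.58 in KO mice, and Nr4a1 0.64 ± 0.41 and -0.55 ± 0.45. Egr1 had 0.41 ± 0.29 and -0.51 ± 0.32, and Junb 0.51 ± 0.44 and -0.45 ± 0.49. Arc had 0.34 ± 0.44 and -0.81 ± 0.49, Dusp1 0.35 ± 0.38 and -0.51 ± 0.42, Npas4 -0.042 ± 0.52 and -0.81 ± 0.57, and Sik1 0.57 ± 0.25 and 0.066 ± 0.27. Egr2, named after its values were seen, had 1.03 ± 0.63 and -1.02 ± 0.70. These effects and the comparisons that follow share libraries, so they are not independent of each other.

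Whether the response to stress differed by genotype was tested as the interaction, in which a value below 0 means a lower response in KO than in WT mice. None of the 39 and none of all 16313 genes passed (0%), with edgeR, DESeq2 or limma voom. At an unadjusted p under 0.05 edgeR gave 7 of 39, all below 0, and 384 of all genes. DESeq2 gave 8 of the 39 and limma voom 10. The median of the 39 was -0.50, with 34 below 0, against 0.0012 over all genes. It was -0.17 within set 1, -0.78 within set 2, -0.31 without WT stress 3, -0.58 without KO stress 4 and -0.56 without WT control 7. The fits leaving out these libraries gave 2, 12 and 14 of 39 at an unadjusted p under 0.05. In set 2 the KO controls were KO control 5 and 6 alone, both among the 5 high libraries. Klf2 led with -0.94 ± 0.34, then Gadd45b, a stress gene tied to DNA demethylation and p38 signalling, with -0.79 ± 0.30, and Klf10 with -0.45 ± 0.19, each with an adjusted p of 0.99999. Among the other genes given throughout the values ran from -1.19 ± 0.61 (Nr4a1) and -1.15 ± 0.66 (Arc) over -1.07 ± 0.78 (Fos), -0.96 ± 0.66 (Junb), -0.93 ± 0.44 (Egr1), -0.86 ± 0.57 (Dusp1), -0.76 ± 0.77 (Npas4) and -0.50 ± 0.37 (Sik1) to -0.17 ± 0.32 (Klf4). Of the further rapid response genes 0 of 21 passed (Crem, a CREB-family factor, -0.41 ± 0.15), of the upstream genes 0 of 25 (Crtc2 -0.29 ± 0.11) and of the slower genes 0 of 12.

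In controls, KO against WT asked for a difference without stress. None of the 39 and none of all genes passed (0%) with edgeR, while DESeq2 called 3 genes, none of them among the 39, and limma voom called 0. At an unadjusted p under 0.05 edgeR gave 0 of 39 and 493 of all genes, DESeq2 0 of 39 and limma voom 4. The median of the 39 was 0.12 (29 above 0), but -0.059 within set 1 and 0.41 within set 2. The KO controls of set 2 were KO control 5 and 6 alone (n = 2), both among the 5 high libraries. Without KO control 5 the median was 0.039, and without WT control 7 it was 0.24. Ptgs2, which makes prostaglandins, led by p with -0.46 ± 0.24, from 7.42 to 15.7 CPM in WT controls (11.3) to 5.12 to 11.4 in KO controls (7.55). Klf2 (0.41 ± 0.23) and Rgs2 (0.20 ± 0.12) followed. Of the genes given throughout, Sik1 (0.42 ± 0.25), Egr1 (0.37 ± 0.29), Fos (0.33 ± 0.53), Dusp1 (0.31 ± 0.38), Nr4a1 (0.25 ± 0.41), Arc (0.20 ± 0.44) and Junb (0.084 ± 0.44) had values above 0, and Npas4 (-0.083 ± 0.52) and Klf4 (-0.12 ± 0.22) below 0. Markers of hippocampal neurons were lower in KO controls for 7 of 7 genes (median -0.52) and those of striatum higher for 2 of 2 (median 1.46, both at an unadjusted p under 0.05), none past the threshold. Striatal markers summed to 94.79 to 193.4 CPM in WT and 94.85 to 590.6 in KO controls, and the part of these tissues in the values was not tested. None of the 39 parted without overlap, against 9 of all genes (0.0552%).

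Under stress, KO against WT again gave none of the 39 and none of all genes (0%) with edgeR, DESeq2 or limma voom. At an unadjusted p under 0.05 edgeR gave 4 of 39 and 768 of all genes, DESeq2 6 of 39 and limma voom 13. The 4 of edgeR were lower in KO. The median of the 39 was -0.37, with 35 below 0. It was -0.20 within set 1, -0.38 within set 2, -0.24 without WT stress 3 and -0.53 without KO stress 4. At an unadjusted p under 0.05 edgeR gave 1 of 39 without WT stress 3 and 12 without KO stress 4. Gadd45b led with -0.64 ± 0.22 (adjusted p = 0.798): WT stress libraries ran from 18.1 to 39.05 CPM (median 19.5) and KO stress libraries held 11.5, 19.9, 13.7, 19.3 and 15.3 CPM. Klf10 had -0.33 ± 0.14 and Klf2 -0.53 ± 0.25. The genes given throughout were all below 0, with larger values and larger errors for Arc (-0.95 ± 0.49), Nr4a1 (-0.94 ± 0.45), Junb (-0.87 ± 0.49), Npas4 (-0.85 ± 0.57) and Fos (-0.74 ± 0.58). Egr1 (-0.56 ± 0.32), Dusp1 (-0.55 ± 0.42), Klf4 (-0.29 ± 0.23) and Sik1 (-0.085 ± 0.27) had smaller values than Gadd45b. No gene of the 39 parted without overlap, against 40 of all genes (0.245%). Markers of thalamus and habenula were higher in KO stress for 3 of 3 genes (median 0.90) those of striatum for 2 of 2 (1.04), and those of hippocampal neurons lower for 7 of 7 (-0.39), none past the threshold, and their part in these values was not tested.

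Averaged over both genotypes, none of the 39 passed with edgeR, DESeq2 or limma voom. Of all genes 74 (0.454%) passed with DESeq2, 43 (0.264%) with limma voom and 35 (0.215%) with edgeR. At an unadjusted p under 0.05 there were 5 of 39, 3 of them higher, and 1007 of all genes. The median of the 39 was -0.0026 and 19 were above 0. It was -0.13 with 11 above 0 without WT stress 3, and 0.072 with 25 above 0 without WT control 7. Klf4 led with 0.50 ± 0.16 (adjusted p = 0.373), then Klf2 with 0.43 ± 0.17 and Maff, a small Maf factor, with 0.64 ± 0.25 (both adjusted p = 0.666). The other genes given throughout ran from -0.42 ± 0.39 (Npas4) and -0.23 ± 0.33 (Arc) over -0.079 ± 0.28 (Dusp1), -0.05 ± 0.22 (Egr1), 0.029 ± 0.33 (Junb), 0.043 ± 0.30 (Nr4a1) and 0.11 ± 0.39 (Fos) to 0.32 ± 0.18 (Sik1). Maff followed the library sets in WT controls, with 2.92, 5.03 and 4.97 CPM in set 1 and 1.26, 1.32, 1.33 and 1.49 in set 2. WT stress libraries ran from 2.86 to 4.95 CPM (median 4.17), KO controls from 1.08 to 4.95 (2.46), and KO stress libraries held 3.67, 4.52, 3.12, 4.64 and 4.47. Within set 2 alone Maff rose past the threshold in the average (1.39, adjusted p = 0.0188, 69 genes called) and in WT stress (20 genes called). Ier3 rose in the average as well (0.68 ± 0.12, adjusted p = 0.00526). It was the only 1 of the 21 further rapid response genes to do so, and none of the 25 upstream or 12 slower genes passed.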

How the data were processed

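Hippocampal RNA of 24 libraries was sequenced on an Illumina platform, per the labels' protocols. The deposited table holds the authors' raw counts per gene. STAR, DESeq2 and mm10 are named in the submitters' processing notes. For the counter, annotation and strand setting nothing is given in the sources used here, so overlapping and antisense genes cannot be told apart. Of the deposited counts from 1 to 10, 70.9 to 75.8% were even numbers. Depth was 25711872 to 35148198 counts a library.

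Counts were fitted with edgeR 4.0.16 (R 4.3.3; TMM scaling, filterByExpr with a minimum count of 10, robust quasi-likelihood test, 4 group means over 24 libraries, 20 residual degrees of freedom). P-values were adjusted over all 16313 genes by the Benjamini-Hochberg method, with a threshold of 0.05. CPM were scaled by TMM, and spread used log2 CPM with a prior count of 2. A second fit added log2 CPM of Fos. The fits were tested on simulated data. Library sets were split at 15000 CPM of Rn45s. Values are given throughout for Fos, Arc, Npas4, Egr1, Junb, Nr4a1, Dusp1, Klf4 and Sik1, and in each comparison for the 3 of the 39 with the smallest p. Egr2 and other genes named beside these were chosen after their values were seen. The members and lists were chosen with earlier results of these data known. Alternatives were RLE scaling, DESeq2 1.42.0, limma voom (3.58.1), other filters, library sets, a replicate block, and leaving out libraries.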

Additional observations from a re-analysis of the deposited data

Results flagged for a closer look

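Each of the 39 genes was looked at in each of the 4 groups for a library that stood far from the others of its group (Dixon's criterion at 95%). Of 156 such looks 14 gave one, where chance gives about 1 in 20, and the genes are not independent of each other. In KO stress 4 there were 5: Arc at 291.5 CPM against 114 to 163.5 in the other libraries of the group, Egr1 at 272.3 against 163.1 to 183.2, Klf10 at 25.67 against 12.18 to 15.2, Nr4a1 at 138.2 against 63.28 to 83.93 and Ptgs2 at 16.31 against 6.371 to 7.699. In WT control 7 there were 4: Dusp6 at 71.11 CPM against 43.32 to 49.31, Egr1 at 409.2 against 121.8 to 230.4, Egr2 at 21.31 against 0.8623 to 8.172 and Egr4 at 112.0 against 38.87 to 70.0. In WT stress 3 there were 3: Atf3 at 3.281 CPM against 0.5438 to 1.478, Csrnp1 at 25.54 against 12.08 to 17.06 and Klf4 at 20.97 against 6.898 to 11.81. Gadd45b stood at 32.21 CPM in KO control 5 against 17.17 to 22.81, and Jund at 509.1 in KO stress 2 against 331.7 to 381.9. All 14 were high.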

How the results depend on the processing

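Most values of single genes kept their direction and side of the threshold: 2340 of the log2 fold changes under an alternative did so, while 85 moved and 2 passed the threshold (Klf2 in WT stress with DESeq2 and Maff in the average within set 2). These are counted over named genes only, and the counts that follow over all 39. In WT stress 1 of the 39 genes passed with DESeq2 (59 genes in all) and 1 within set 2 (20 genes). In the average of both genotypes 1 passed within set 2 (69 genes). The count of genes moving with Fos, 18 of 38, was 9 within set 1 and 8 within set 2. The 9 of set 1 included Jun (0.47), which rose with Fos, and Homer1 (-0.80) and Nr4a3 (-2.16), which fell. A far larger share of all genes passed in set 1, as given above. The count was 10 to 18 when each library was left out in turn (13 to 56 genes in all), with the lowest count without WT stress 3. Within set 1 the slopes of Dusp6 (-0.0305), Sik1 (-0.11), Nr4a3 (-2.16), Dusp4 (-0.71), Tiparp (-0.56), Egr3 (-0.27) and Klf10 (-0.051) turned below 0. Those of Maff (1.73) and Nptx2 (0.088) turned above it. The cause was not tested. The median spread of the 39 was 0.357 with library set means removed. All-gene counts differed by over 1.5 times with DESeq2 (59 in WT stress, 7 in KO stress, 74 in the average), within set 1 (0 in WT stress, 0 in the average), in the average without the 3 libraries with most thalamic transcripts (20, against 35), and for Fos with limma voom (144) and a set term (74). The 1 gene called in KO stress was lost in several settings. With the replicate number as a block, 12 of 38 moved with Fos and 0 of the 39 passed in any of the 6 comparisons. Of the 39, 10 then had an unadjusted p under 0.05 in WT stress (edgeR), against 4 without the block. The counts were 7 against 5 in KO stress and 12 against 7 in the interaction. For KO against WT they were 7 against 0 in controls and 3 against 4 under stress, and 7 against 5 in the average. Correlations of same-numbered libraries ran from -0.278 to 0.489. Their median was 0.148 in WT stress against control, where pairs of other numbers had -0.0396. For KO against WT it was 0.144 in controls (others -0.0867) and 0.189 under stress (others -0.11). In KO stress against control it was -0.0962 (others 0.0218). The main fits did not take the numbers as pairs. Within sets, groups hold few libraries, and low genes such as Inhba (6 to 53 reads) and Atf3 (12 to 102) are the least precise.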
